A study of Mus musculus with 8 samples.

Results

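ATF4 and amino acid response genes are a list of 34 genes for amino acid synthesis, amino acid transport and stress control that lie under the transcription factor ATF4. Members were the probes whose annotated gene symbol equals a name on the list, and 32 of the 34 had a probe among the 19084 genes with a symbol on the array. The enzymes Phgdh and Pycr1 had no probe with that symbol and have no value here. The cells were RAW264.7, a mouse macrophage-like line. The shLuc cells stably expressed a short hairpin RNA (shRNA) against luciferase and served as the control, and the shDab2 cells stably expressed an shRNA against Dab2, an endocytic adaptor protein. Lentivirus delivered both shRNAs, puromycin selected the infected cells, and each shRNA is represented by 1 line, so the effects of the knockdown and of the line cannot be told apart. Each line was treated for 6 h with PBS, called resting here, or with 100 ng/ml of lipopolysaccharide (LPS), the bacterial ligand of TLR4. Each of the 4 groups was hybridized to 2 arrays of 1 colour, 8 in all. No source used here states whether the 2 arrays of a group came from separate cultures, and p-values here reflect array-to-array spread alone, which may be technical.

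ATF4 is a basic leucine zipper (bZIP) factor and the main transcriptional effector of the integrated stress response. Kinases that sense amino acid shortage, unfolded proteins in the endoplasmic reticulum, double-stranded RNA or haem shortage phosphorylate the translation factor eIF2α, which lowers protein synthesis in general while ATF4 mRNA is translated more. ATF4 then pairs with C/EBP family members on composite response elements and raises genes that import and make amino acids, load them on tRNA, keep glutathione supplied and, in prolonged stress, feed back on the response. Much of the control of ATF4 lies in translation, and the arrays measure mRNA only.

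Intensities are given after quantile normalization between arrays, a gene is represented by its probe with the highest mean, and log2 fold changes are on the scale of log2(intensity + 50), which understates the change of dim genes. Calls are changes with an adjusted p below 0.05 in a limma model of all 8 arrays, with Benjamini-Hochberg adjustment over 26423 probes. Arrays of a group correlated at 0.9949 to 0.9963 over all probes on the log2 scale. Dab2 was read by 1 probe of low intensity. On shLuc arrays it read 91.1 and 88.1 with PBS and 52.2 and 72.4 with LPS. On shDab2 arrays it read 59.1 and 76.0 with PBS and 39.1 and 34.8 with LPS. Its log2 difference between the lines was -0.25 with PBS (limma, adjusted p = 0.26) and -0.36 with LPS (adjusted p = 0.0577), so neither was called. In each treatment the shDab2 arrays read below the shLuc arrays. By Western blot the study reported less Dab2 protein in its shDab2 cells than in shLuc cells. The 8 measured macrophage markers summed to between 56588 and 89680 on every array, while 11 of 13 markers of lymphocytes, fibroblasts and epithelial cells stayed under an intensity of 50 on all 8 arrays and the highest value of any of the 13 was 103. Adgre1, the F4/80 antigen of macrophages, differed between the lines by 1.46 with PBS and 2.08 with LPS on the log2 scale, higher in shDab2 cells. Of the 8 markers 2 were called higher and 2 lower in shDab2 cells with PBS, and 3 and 2 with LPS, and their part in the results below was not tested.

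The ATF4 and amino acid response genes were lowest in resting shDab2 cells and highest in shLuc cells with LPS. The mean deviation of the 32 genes from their own average over the arrays was -0.04 and -0.03 on shLuc PBS arrays, 0.50 and 0.48 on shLuc LPS arrays, -0.69 and -0.69 on shDab2 PBS arrays and 0.20 and 0.26 on shDab2 LPS arrays, all on the log2 scale. The groups did not overlap on this measure, and the arrays of a group lay closer together than any pair of groups. In resting cells 22 of the 32 genes were lower in shDab2 than in shLuc cells and 0 were higher, with a median log2 difference of -0.54, against 6.4% of all genes lower and 5.65% higher. LPS raised 18 of the 32 in shLuc cells and lowered 1, with a median of 0.37, where 11.6% of all genes rose and 15.7% fell. In shDab2 cells LPS raised 24 and lowered 1, with a median of 0.74, where 13.4% of all genes rose and 18% fell. With LPS in both lines, 14 were lower and 1 was higher in shDab2 cells, with a median of -0.16, against 11.6% of all genes lower and 9.07% higher. The LPS response itself was larger in shDab2 than in shLuc cells for 14 genes and smaller for 0, with a median difference of 0.31, against 2.72% and 3.08% of all genes. At an unadjusted limma p under 0.05, 0 of the 32 were higher in resting shDab2 cells and 0 had a smaller LPS response there, against 24 lower and 18 larger. The median over all genes lay between -0.01 and 0 in each of the 5 comparisons. Many genes of the array are dim and seldom called. Among the 9505 genes with a mean intensity of at least 50, 12.2% were lower and 10.8% higher in resting shDab2 cells, 21.5% rose and 28.5% fell with LPS in shLuc cells, 24.6% rose and 33.4% fell with LPS in shDab2 cells, 21.9% were lower and 16.4% higher in shDab2 cells with LPS, and the LPS response was larger for 5.1% and smaller for 6%.

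By size alone, past a difference of 1.5 on the log2(intensity + 50) scale and with no test, 4 of the 32 lay lower and 0 higher in resting shDab2 cells, against 0.115% and 0.121% of all genes. LPS took 3 past it upward and 0 downward in shLuc cells (0.912% and 0.288% of all genes) and 7 and 0 in shDab2 cells (1.6% and 0.734%). With LPS, 0 differed by that much between the lines in either direction (0.309% of all genes higher and 0.0734% lower), and the responses differed by that much upward in 1 gene, Chac1, and downward in 0 (0.299% and 0.0786%). The criterion of the methods names no offset, and on log2 ratios of group means with no offset, means under 50 set to 50, a count chosen after seeing the data, 5 and 0 lay past 1.5 with LPS in shLuc cells (1.1% and 0.451% of all genes) and 8 and 0 in shDab2 cells (1.91% and 1.22%). On that scale 0 were higher and 4 lower between the resting lines (0.204% and 0.115%), 0 in either direction with LPS (0.403% and 0.131%), and the responses differed upward in 2, Trib3 and Chac1, and downward in 0 (0.393% and 0.105%).

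**Figure D1:**
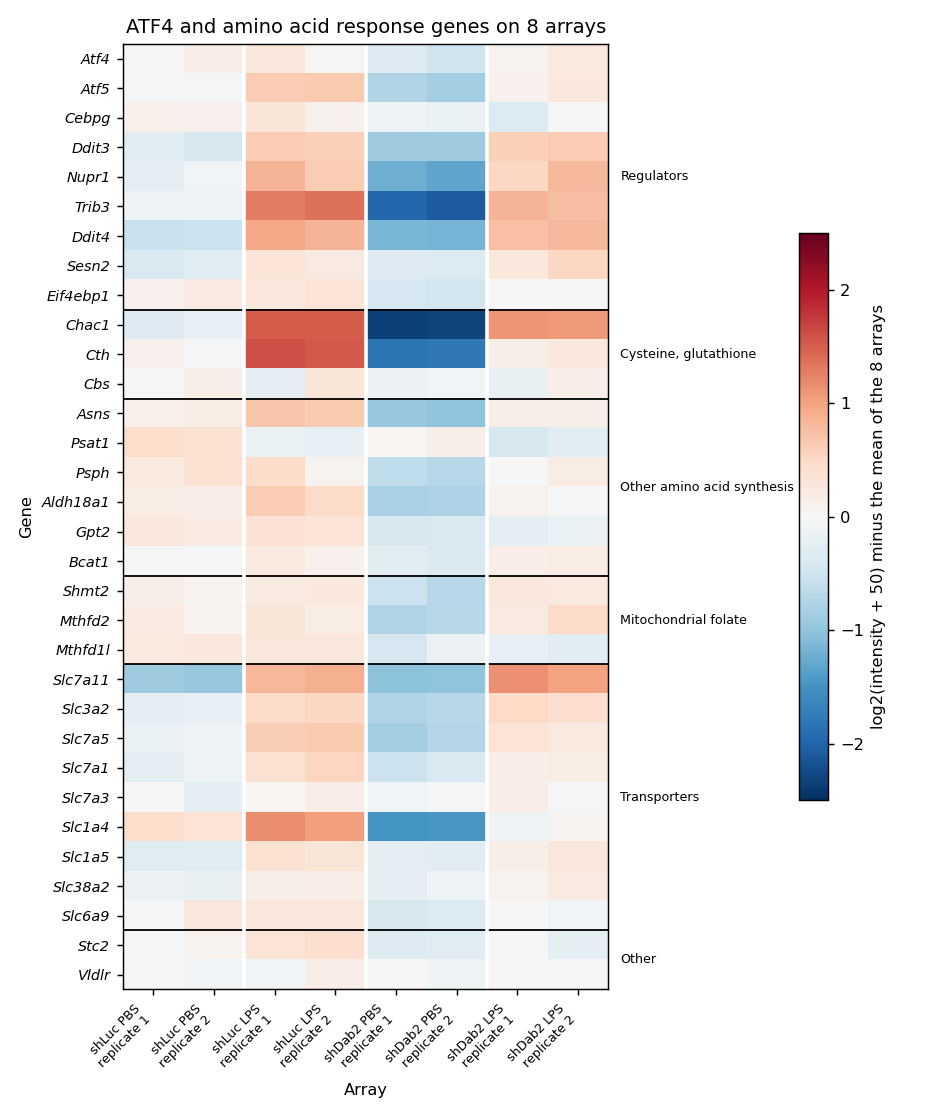
Deviation of each of the 32 measured genes (rows, grouped by role) on each of the 8 arrays (columns) from the gene's own mean over the arrays, as log2(intensity + 50), with red for higher and blue for lower. The shDab2 arrays with PBS hold the bluest columns, with a mean deviation of -0.69 on each, and the shLuc arrays with LPS the reddest, with 0.50 and 0.48.

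RefSeq promoter windows of GRCm38.p6, from 250 bases before to 50 bases after the annotated start, were at hand for 29 of the 34 genes, with none for Slc7a5, Slc7a3, Eif4ebp1, Slc1a5 and Cth. The composite element to which ATF4 and C/EBP factors are known to bind has the core TGATGNAA and was searched on both strands. The core was found in a window of 8 of the 29 genes (27.6%), against 1219 of all 27025 genes with a window (4.51%). The list was chosen as genes under ATF4, so these shares are no test of that. With the stricter TGATGCAA, which is contained in the first, 6 of 29 (20.7%) and 279 of 27025 (1.03%) held a match. A match is a string of letters in a window and not a measured binding site. The matches lay in Chac1, Trib3, Asns, Slc1a4, Nupr1, Slc7a11, Vldlr, which was at background on all arrays, and Pycr1, which had no probe. The 6 that were measured above background are printed 5′ to 3′ on the strand of the gene, since they include 5 of the 6 genes that differed most between the resting lines and Slc7a11, which did not differ between the resting lines by the test. Capitals mark the match. The windows lie at chr2:119350992-119351291 on the plus strand for Chac1, and on the minus strand at chr2:152344011-152344310 for Trib3, chr6:7693160-7693459 for Asns, chr11:20332664-20332963 for Slc1a4, chr7:126625421-126625720 for Nupr1 and chr3:50443564-50443863 for Slc7a11.
Chac1: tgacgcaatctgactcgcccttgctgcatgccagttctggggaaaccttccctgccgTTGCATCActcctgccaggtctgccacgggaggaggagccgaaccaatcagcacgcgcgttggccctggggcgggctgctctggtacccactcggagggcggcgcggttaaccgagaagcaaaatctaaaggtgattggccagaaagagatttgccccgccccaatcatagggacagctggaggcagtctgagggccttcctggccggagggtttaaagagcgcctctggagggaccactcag
Trib3: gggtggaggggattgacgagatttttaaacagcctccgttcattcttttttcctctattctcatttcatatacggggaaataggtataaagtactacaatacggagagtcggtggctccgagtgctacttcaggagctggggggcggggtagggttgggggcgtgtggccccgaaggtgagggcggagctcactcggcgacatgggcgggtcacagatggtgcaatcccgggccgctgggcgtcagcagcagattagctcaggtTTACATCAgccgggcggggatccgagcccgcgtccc
Asns: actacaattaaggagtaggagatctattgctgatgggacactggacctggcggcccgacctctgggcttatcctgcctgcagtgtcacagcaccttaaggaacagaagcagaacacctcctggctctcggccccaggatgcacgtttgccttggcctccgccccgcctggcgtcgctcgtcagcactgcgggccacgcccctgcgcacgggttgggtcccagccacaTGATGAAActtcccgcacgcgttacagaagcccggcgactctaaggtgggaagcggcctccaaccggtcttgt
Slc1a4: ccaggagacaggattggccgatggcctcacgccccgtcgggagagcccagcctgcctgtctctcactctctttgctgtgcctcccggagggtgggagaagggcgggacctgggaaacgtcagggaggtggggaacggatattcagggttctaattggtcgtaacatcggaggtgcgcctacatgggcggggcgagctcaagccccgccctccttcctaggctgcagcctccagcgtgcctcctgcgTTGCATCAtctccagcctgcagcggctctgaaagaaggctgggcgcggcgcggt
Nupr1: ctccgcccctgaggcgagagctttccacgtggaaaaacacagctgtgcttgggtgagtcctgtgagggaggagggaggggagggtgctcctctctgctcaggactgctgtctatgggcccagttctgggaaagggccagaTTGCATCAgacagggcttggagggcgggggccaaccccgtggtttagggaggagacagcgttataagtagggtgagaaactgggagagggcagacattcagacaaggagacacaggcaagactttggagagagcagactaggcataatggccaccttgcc
Slc7a11: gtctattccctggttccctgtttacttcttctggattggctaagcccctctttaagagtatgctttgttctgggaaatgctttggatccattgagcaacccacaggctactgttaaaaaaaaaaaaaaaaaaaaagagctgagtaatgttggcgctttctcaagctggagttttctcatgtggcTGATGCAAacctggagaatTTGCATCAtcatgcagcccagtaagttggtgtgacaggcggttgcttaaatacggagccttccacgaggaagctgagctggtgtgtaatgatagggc
Counted from the annotated start, the match began at -193 in Chac1, 15 in Trib3, -23 in Asns, -4 in Slc1a4 and -110 in Nupr1. Slc7a11 alone of the 6 held 2 matches, in opposite orientations, beginning at -66 and -47. Its window lies inside the gene's span of chr3:50364936-50499087, so these positions count from an annotated start within that span. The log2 difference between shDab2 and shLuc cells with PBS was -2.06 for Chac1, -1.90 for Trib3, -1.86 for Slc1a4, -1.13 for Nupr1, -1.12 for Asns and -0.09 for Slc7a11, so genes with a match spanned nearly the whole range of the list.

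Among the regulators, Atf4 itself was lower in resting shDab2 cells, and Trib3, Nupr1, Ddit3 and Ddit4 were lower there as well and rose with LPS in both lines. Atf4 (chr15:80255184-80257545 in GRCm38) had intensities of 11616 and 12733 on shLuc PBS arrays, 13626 and 11674 on shLuc LPS arrays, 9093 and 8036 on shDab2 PBS arrays and 12141 and 13548 on shDab2 LPS arrays. It is given by array because the list carries its name. Only the resting shDab2 arrays lay apart, and the other 3 groups overlapped. The log2 difference of -0.51 ± 0.09 (SE, n = 2 arrays per group, as for each SE below) between the resting lines passed limma's test (adjusted p = 0.00523) and was -0.42 (adjusted p = 0.0517) without shDab2 replicate 2 with PBS. Without normalization between arrays the difference between the resting lines was -0.26. LPS raised Atf4 in shDab2 cells by 0.58 ± 0.09 (limma, adjusted p = 0.000485), and the change in shLuc cells was 0.05 ± 0.09 (adjusted p = 0.776). The larger response in shDab2 cells, by 0.53 (limma, adjusted p = 0.044), was lost on leaving out any of 6 of the 8 arrays, with adjusted p values up to 0.156.

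Trib3 encodes a pseudokinase that binds ATF4 and holds back its activity, and it lies at chr2:152337425-152344060. Its intensity was 474 and 466 on shLuc PBS arrays, 1313 and 1406 on shLuc LPS arrays, 94.9 and 84.3 on shDab2 PBS arrays and 970 and 913 on shDab2 LPS arrays. No group overlapped another, and the order was resting shDab2, resting shLuc, shDab2 with LPS and shLuc with LPS. Resting shDab2 cells held 5.25-fold less than resting shLuc cells by the group means, a log2 difference of -1.90 ± 0.07 (limma, adjusted p = 7.59e-08). LPS brought a 2.89-fold rise in shLuc cells and a 10.5-fold rise in shDab2 cells, and the responses differed by 1.39 ± 0.10 on the log2 scale (limma, adjusted p = 1.52e-05). With LPS the gap between the lines was -0.51 (limma, adjusted p = 0.000333).

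Nupr1, a small stress-induced chromatin protein, lies at chr7:126623246-126625470 and read 488 and 547 on shLuc PBS arrays, 1080 and 915 on shLuc LPS arrays, 217 and 202 on shDab2 PBS arrays and 844 and 1053 on shDab2 LPS arrays. The lines lay apart at rest and overlapped with LPS. The resting difference was -1.13 ± 0.11, that with LPS was -0.07 ± 0.11, and the difference in LPS response was 1.05 ± 0.15 (limma, adjusted p = 7.11e-05, 0.749 and 0.00221). Ddit4 (chr10:59949675-59951770) encodes REDD1, an inhibitor of mTORC1, and read 345 and 350 on shLuc PBS arrays, 1088 and 998 on shLuc LPS arrays, 211 and 210 on shDab2 PBS arrays and 932 and 974 on shDab2 LPS arrays. LPS raised it by 1.46 and 1.94 on the log2 scale in the respective lines, and the resting difference was -0.61 (limma, adjusted p = 0.000146). Ddit3, which encodes the CHOP factor of prolonged stress, followed the same course, with a group mean of 485 at rest in shLuc cells, 315 at rest in shDab2 cells and 985 and 993 with LPS. Its LPS responses of 0.95 and 1.52 differed by 0.56 (limma, adjusted p = 0.00407).

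The remaining regulators differed in how far they followed. Atf5, a bZIP factor related to ATF4, was lower in shDab2 cells at rest (-0.77) and with LPS (-0.46), and rose with LPS by 0.68 in shLuc and 0.98 in shDab2 cells, all called, while the difference of the responses was 0.31 (limma, adjusted p = 0.0939). Eif4ebp1, the inhibitor of cap-dependent translation 4E-BP1, was lower in shDab2 cells by 0.60 at rest and 0.33 with LPS, as the group means of 5222 against 3420 and 5801 against 4613 show. LPS raised it in shDab2 cells by 0.43, and its change in shLuc cells was 0.15 (limma, adjusted p = 0.0714). Sesn2, an amino acid sensor that restrains mTORC1, was under 50 on all 4 PBS arrays and at 64.1 to 90.3 on the 4 LPS arrays. Against that level its rise with LPS was at least 1.37-fold in shLuc and at least 1.56-fold in shDab2 cells, both called, and the lines differed by 0.01 at rest and 0.11 with LPS (limma, adjusted p = 0.98 and 0.61). Cebpg, a C/EBP partner of ATF4, was near background, at 27.0 to 69.4, and passed no test.

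**Figure D2:**
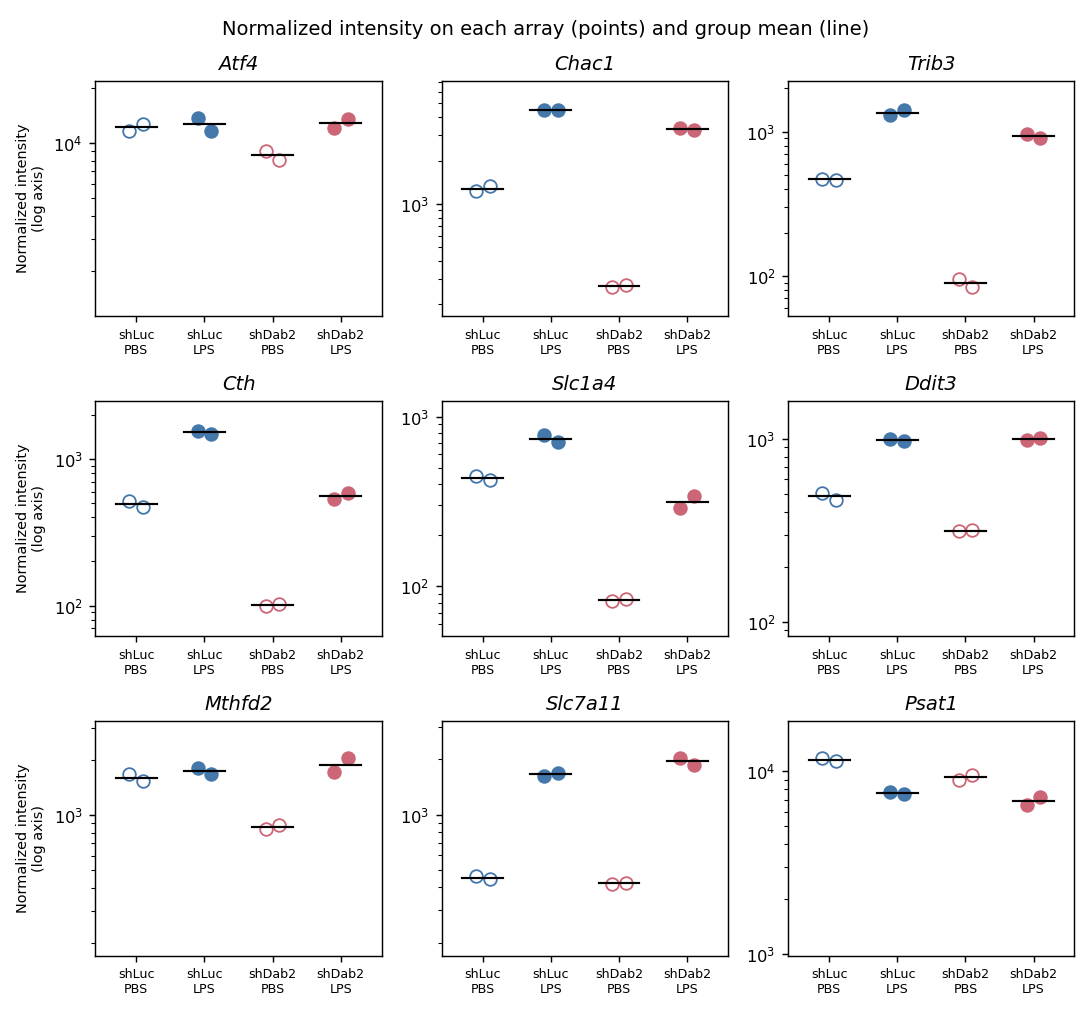
Normalized intensity (log axis) of 9 genes on each array (points, blue for shLuc and red for shDab2 cells, open for PBS and filled for LPS), with the mean of the 2 arrays of a group as a line. Chac1, Trib3, Cth and Slc1a4 drop furthest in resting shDab2 cells, Ddit3 and Mthfd2 meet in the LPS groups, Slc7a11 rises from like levels in both lines, and Psat1 falls with LPS.

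Of the genes of cysteine and glutathione turnover, Chac1 and Cth were lower in shDab2 cells in both treatments and rose with LPS in both lines. Chac1 encodes a γ-glutamylcyclotransferase that degrades glutathione and is a well-known ATF4 target, at chr2:119351242-119354326. It read 1226 and 1324 on shLuc PBS arrays, 4468 and 4458 on shLuc LPS arrays, 264 and 271 on shDab2 PBS arrays and 3360 and 3252 on shDab2 LPS arrays. The 4 groups did not overlap, and the resting shDab2 arrays were 4.76-fold below the resting shLuc arrays (log2 difference -2.06 ± 0.06, limma, adjusted p = 1.13e-08). LPS raised Chac1 3.50-fold in shLuc cells and 12.3-fold in shDab2 cells, and the responses differed by 1.63 ± 0.08 on the log2 scale (limma, adjusted p = 1.1e-06). This was the largest difference in response on the list, while on log2 ratios of group means with no offset Trib3 (1.86) lay above Chac1 (1.82). With LPS the gap narrowed to -0.43 (limma, adjusted p = 0.000313). Cth, cystathionine γ-lyase, makes cysteine from cystathionine and lies at chr3:157894248-157925081. It read 518 and 468 on shLuc PBS arrays, 1564 and 1490 on shLuc LPS arrays, 99.2 and 103 on shDab2 PBS arrays and 535 and 585 on shDab2 LPS arrays. The shDab2 arrays with LPS thus lay only a little above the shLuc arrays with PBS. Cth differed between the lines by -1.85 ± 0.07 at rest and by -1.37 ± 0.07 with LPS, which is the widest gap of the list with LPS (limma, adjusted p = 1.41e-07 and 4.3e-07). Its larger LPS response in shDab2 cells, 0.48 (limma, adjusted p = 0.0211), was 0.26 with an offset of 100 (adjusted p = 0.177), 0.70 with an offset of 16 (adjusted p = 0.00443) and 0.84 with a floor of 50 (adjusted p = 0.00474), and leaving out any of 5 arrays gave adjusted p values from 0.0628 to 0.101. Cbs, which precedes Cth in the pathway, stayed under 50 on all 8 arrays.

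The other amino acid enzymes were mostly lower in shDab2 cells, with Psat1 as the member that LPS lowered. Asns, asparagine synthetase, lies at chr6:7675165-7693209 and read 16254 and 16956 on shLuc PBS arrays, 24204 and 23710 on shLuc LPS arrays, 7774 and 7410 on shDab2 PBS arrays and 16641 on both shDab2 arrays with LPS. The last 2 are equal only after normalization, from deposited intensities of 17390 and 17479. The shDab2 arrays reached with LPS the level of resting shLuc arrays. It was 2.19-fold lower in resting shDab2 cells and 1.44-fold lower with LPS (limma, adjusted p = 1.02e-06 and 9.02e-05), and its LPS responses of 0.53 and 1.13 differed by 0.60 ± 0.08 (limma, adjusted p = 0.00172). Aldh18a1, the first enzyme of proline synthesis from glutamate, had group means of 938 at rest and 1240 with LPS in shLuc cells and of 457 and 856 in shDab2 cells, lower in shDab2 cells by 0.96 and 0.51. Gpt2, mitochondrial alanine aminotransferase, lies at chr8:85492576-85528902 and read 470 and 443 on shLuc PBS arrays, 497 and 492 on shLuc LPS arrays, 272 and 279 on shDab2 PBS arrays and 312 and 329 on shDab2 LPS arrays. It set the lines apart, by -0.64 at rest and -0.56 with LPS (limma, adjusted p = 0.000119 and 0.000128), while its LPS changes of 0.10 and 0.19 did not pass the test (adjusted p = 0.324 and 0.0562). Bcat1, which transfers the amino group of branched-chain amino acids, was of low intensity, at 41.8 to 90.6. It rose with LPS at least 1.69-fold in shDab2 cells (limma, adjusted p = 0.00232).

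Of the serine and mitochondrial folate enzymes, Psph, Shmt2 and Mthfd2 were lower in shDab2 cells at rest and not with LPS by the test, Mthfd1l was lower in both treatments and Psat1 fell with LPS. Psat1, which makes phosphoserine, lies at chr19:15905123-15925059 and read 11807 and 11313 on shLuc PBS arrays, 7724 and 7500 on shLuc LPS arrays, 9005 and 9534 on shDab2 PBS arrays and 6516 and 7216 on shDab2 LPS arrays. It fell with LPS by 0.60 in shLuc and by 0.43 in shDab2 cells (limma, adjusted p = 3.95e-05 and 0.000327). With scaling to the 75th percentile its change in shDab2 cells was -0.12 (adjusted p = 0.291). Without normalization between arrays its difference between the resting lines was -0.05 (limma, adjusted p = 0.624). The difference of -0.32 between the resting lines was not called without shLuc replicate 1 or without shDab2 replicate 1 with PBS (adjusted p = 0.0727 and 0.083). Psph, the phosphatase that completes serine synthesis, lies at chr5:129765558-129787443 and read 2114 and 2318 on shLuc PBS arrays, 2456 and 1896 on shLuc LPS arrays, 1132 and 1068 on shDab2 PBS arrays and 1776 and 2034 on shDab2 LPS arrays. The resting shDab2 arrays were 2.01-fold below the resting shLuc arrays, and with LPS the lines overlapped. Its difference in LPS response of 0.80 ± 0.15 (limma, adjusted p = 0.0116) missed the threshold without shDab2 replicate 2 with LPS (adjusted p = 0.051) and without shLuc replicate 2 with PBS (adjusted p = 0.0514).

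Shmt2, which passes a carbon unit of serine to mitochondrial folate, lies at chr10:127517123-127522444 and read 3000 and 2872 on shLuc PBS arrays, 3180 and 3294 on shLuc LPS arrays, 1868 and 1645 on shDab2 PBS arrays and 3337 and 3229 on shDab2 LPS arrays. Mthfd2, the next mitochondrial enzyme of that route, lies at chr6:83305704-83326011 and read 1680 and 1524 on shLuc PBS arrays, 1798 and 1677 on shLuc LPS arrays, 840 and 883 on shDab2 PBS arrays and 1719 and 2047 on shDab2 LPS arrays. In each of these genes the resting shDab2 arrays lay far below the other 6, and for Shmt2 the resting shLuc arrays also lay a little below the LPS arrays. LPS raised Shmt2 by 0.89 and Mthfd2 by 1.08 in shDab2 cells, and their changes in shLuc cells were 0.14 and 0.11 (limma, adjusted p = 0.179 and 0.413). The responses differed by 0.75 ± 0.09 for Shmt2 and by 0.97 ± 0.12 for Mthfd2 (limma, adjusted p = 0.000896 and 0.000811). A dimmer second probe of Shmt2 gave -0.49 between the resting lines (limma, adjusted p = 0.00849) and a difference in response of 0.33 (adjusted p = 0.272). Mthfd1l, the mitochondrial formate-producing synthetase, behaved otherwise, with group means of 2151 and 2191 in shLuc cells and 1474 and 1512 in shDab2 cells at rest and with LPS. It was lower in shDab2 cells by 0.54 and 0.52, and its LPS changes were 0.03 and 0.04 (limma, adjusted p = 0.874 and 0.799). Of the 3 other probes of Mthfd1l, 1 called the same direction between the lines in both treatments and the other two called nothing.

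The transporters did not move as a block. Slc1a4, a neutral amino acid carrier for alanine, serine and cysteine, lies at chr11:20302180-20332713 and read 447 and 420 on shLuc PBS arrays, 773 and 709 on shLuc LPS arrays, 81.6 and 83.8 on shDab2 PBS arrays and 291 and 339 on shDab2 LPS arrays. Every shDab2 array was below every shLuc array, also with LPS. The gap was 5.24-fold at rest and 2.35-fold with LPS (log2 differences -1.86 ± 0.08 and -1.12 ± 0.08, limma, adjusted p = 3.04e-07 and 4.23e-06), and the LPS responses of 0.71 and 1.46 differed by 0.75 (adjusted p = 0.00356). Slc7a11 encodes xCT, the cystine importer that supplies glutathione synthesis, and lies at chr3:50364936-50499087. It read 460 and 442 on shLuc PBS arrays, 1633 and 1696 on shLuc LPS arrays, 419 and 423 on shDab2 PBS arrays and 2034 and 1863 on shDab2 LPS arrays. LPS raised it 3.69-fold in shLuc cells and 4.63-fold in shDab2 cells. The resting difference was -0.09 (95% interval -0.23 to 0.04, limma, adjusted p = 0.488). With LPS, Slc7a11 was the 1 gene of the list called higher in shDab2 cells, by 0.22 (adjusted p = 0.029), and this call was lost without shLuc replicate 1 or 2 with LPS (adjusted p = 0.158 and 0.073), without shDab2 replicate 1 with LPS (adjusted p = 0.193), or without a variance trend (adjusted p = 0.0595).

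Slc3a2, the heavy chain that xCT and LAT1 share, had group means of 3380 and 5570 in shLuc cells and 2360 and 5408 in shDab2 cells, at rest and with LPS. It was lower in resting shDab2 cells by 0.51 (limma, adjusted p = 0.00018), and its LPS responses of 0.71 and 1.18 differed by 0.47 (adjusted p = 0.00575). A second probe of Slc3a2 was under 50 on every array except those of shDab2 cells with LPS. It called the same direction for the resting difference (limma, adjusted p = 0.0484), the response in shDab2 cells and the difference. Its change in shLuc cells was -0.01 (adjusted p = 0.952). Its line difference with LPS was 0.31 and not called (adjusted p = 0.0783). Slc7a5, the LAT1 light chain for large neutral amino acids, was lower in shDab2 cells by 0.68 at rest and by 0.34 with LPS, and rose with LPS by 0.76 and 1.10. The lower level with LPS was not called without shLuc replicate 2 with LPS (adjusted p = 0.0508). Slc7a1, the cationic carrier CAT1, was lower by 0.29 in both treatments and rose by 0.63 in both lines, with a difference in response of 0.00 (95% interval -0.23 to 0.22). Without normalization between arrays its difference between the resting lines was -0.024 (limma, adjusted p = 0.854). Its line differences were not called without shLuc replicate 2 or shDab2 replicate 1 with PBS, nor without shLuc replicate 2 or either shDab2 replicate with LPS (adjusted p from 0.0683 to 0.223).

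The glutamine carrier Slc1a5 and the system A carrier Slc38a2 rose with LPS in both lines, by 0.65 and 0.48 and by 0.32 and 0.33, without a called difference between the lines. At rest that difference was 0.05 for Slc1a5 (95% interval -0.08 to 0.19) and 0.00 for Slc38a2 (95% interval -0.14 to 0.14). Slc6a9, the glycine carrier GLYT1, was lower in shDab2 cells by 0.50 at rest and 0.32 with LPS (limma, adjusted p = 0.00506 and 0.0353), and the latter was lost without any 1 of the 4 LPS arrays (adjusted p from 0.0794 to 0.154). The arginine carrier Slc7a3 was near background, at 28.6 to 55.5, and passed no test. Outside these classes, Stc2, a secreted glycoprotein induced by stress, read 98.0 to 110 in resting and 142 to 150 in LPS-treated shLuc arrays and 69.6 to 76.0 and 77.1 to 100 in shDab2 arrays. It was lower in shDab2 cells with LPS by 0.50 (limma, adjusted p = 0.00574), and its rise in shLuc cells, 0.35 (adjusted p = 0.0308), was not called without any 1 of the 4 shLuc arrays (adjusted p from 0.063 to 0.187). Vldlr, a lipoprotein receptor, stayed under 50 on all arrays.

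The response to LPS was compared between the lines gene by gene. LPS raised 17 of the 32 genes in both lines, 7 by the test in shDab2 cells alone and 1 (Stc2) in shLuc cells alone, against 8.92%, 4.42% and 2.48% of all genes. It lowered 1 (Psat1) in both, against 13%, and called 6 in neither, against 63.5%. The 7 called in shDab2 cells alone were Atf4, Psph, Shmt2, Mthfd2, Slc6a9, Eif4ebp1 and Bcat1. Of these, Atf4, Psph, Shmt2 and Mthfd2 differed in response by the test of the difference, and Slc6a9, Eif4ebp1 and Bcat1 did not (limma, adjusted p = 0.562, 0.073 and 0.397). The rise of Slc6a9 in shDab2 cells, 0.34, was not called without shDab2 replicate 1 with PBS or with LPS (adjusted p = 0.0971 and 0.092). The difference in response had a positive sign in 26 of the 32 genes and was negative in 6, with the lowest value at -0.18.

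**Figure D3:**
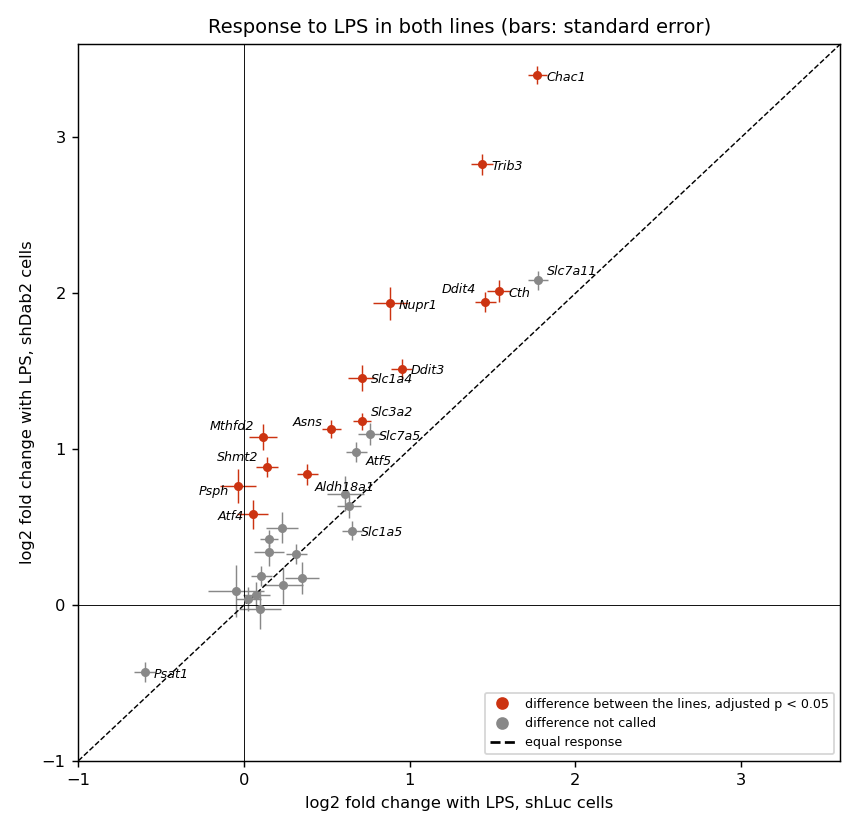
Log2 fold change with LPS in shLuc cells (horizontal) and in shDab2 cells (vertical) for the 32 genes, each with its standard error, red where the responses differed at an adjusted p under 0.05, and a dashed line where they are equal. The 14 red genes all lie above the line, with Cth at 1.54 and 2.01 and Chac1 at 1.77 and 3.40, and 4 of them lie near 0 in shLuc cells.

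Since the difference in response is the line difference with LPS minus that at rest, and both use the same arrays, it is not separate evidence of a change, and the levels are set side by side here. With PBS and with LPS, which use different arrays, 13 genes were lower in shDab2 cells by the test in both treatments, as were 4.36% of all genes: Atf5, Trib3, Asns, Chac1, Cth, Mthfd1l, Aldh18a1, Slc7a5, Slc7a1, Slc1a4, Slc6a9, Eif4ebp1 and Gpt2. A further 9 (1.7% of all genes) were lower at rest and not called with LPS, namely Atf4, Ddit3, Ddit4, Psat1, Psph, Shmt2, Mthfd2, Slc3a2 and Nupr1. With LPS the difference in these 9 ran from -0.18 in Psph to 0.11 in Mthfd2. The 95% interval was -0.12 to 0.14 for Shmt2 and -0.13 to 0.15 for Ddit3, and wider for Nupr1, at -0.31 to 0.16. For Psat1 it was -0.29 to -0.006. The LPS arrays of the lines did not overlap in Psat1 and Ddit4, so a missing call does not show equal levels. Slc7a11 was called with LPS only, as higher, and Stc2 with LPS only, as lower. Neither treatment gave a call in the remaining 8 genes, of which Cbs, Vldlr, Slc7a3, Cebpg, Sesn2 and Bcat1 were under 50 on at least 2 arrays.

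**Figure D4:**
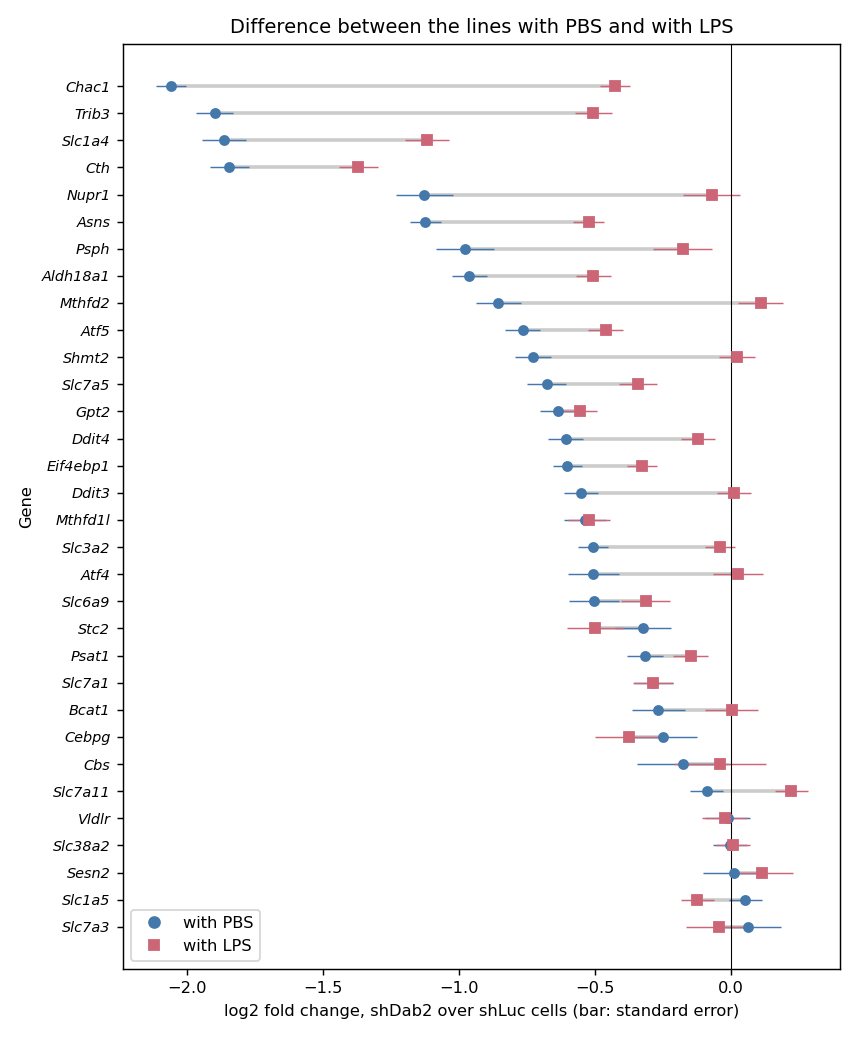
Log2 fold change of shDab2 over shLuc cells with PBS (blue circles) and with LPS (red squares) for the 32 genes, each with its standard error, ordered by the value with PBS. The circles run from -2.06 in Chac1 to 0.06 in Slc7a3 and the squares from -1.37 in Cth to 0.22 in Slc7a11, and most squares lie to the right of their circle.

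The genes around this list were counted in the same fit. Of all genes, 6.4% were lower and 5.65% higher in resting shDab2 cells, or 12.2% and 10.8% at a mean intensity of at least 50. With LPS 11.6% rose in shLuc and 13.4% in shDab2 cells, or 21.5% and 24.6% at that intensity. The response was larger in shDab2 cells for 2.72%, or 5.1%. The counts of each list below stand against these shares. Of 20 measured genes for cytosolic aminoacyl-tRNA synthetases and the tRNA exporter Xpot, which ATF4 is also known to raise, 10 were lower and 0 higher in resting shDab2 cells, with a median of -0.34. The cysteinyl and asparaginyl enzymes Cars and Nars fell furthest short, at -0.73 and -0.62. LPS raised 5 of the 20 in shLuc cells, which is near the share of the brighter genes, and 11 in shDab2 cells, and lowered 1 in each. The response was larger in shDab2 cells for 5, with Tars at 0.60 and Iars at 0.53. Of 10 other folate genes, 2 were lower and 1 higher in resting shDab2 cells. The mitochondrial dehydrogenase Aldh1l2 stood far below the others, at 238 and 248 in resting shLuc and 36.9 and 48.4 in resting shDab2 arrays (log2 difference -1.66, limma, adjusted p = 8.07e-07), with a difference in LPS response of 0.82 (adjusted p = 0.00239). The cytosolic Shmt1 was at -0.50 and Mthfd2l at 0.39.

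Other amino acid and peptide transporters gave 1 higher and 1 lower gene of 17 at rest, with a median of 0.02. The lysosomal peptide carrier Slc15a3, the higher of these at 0.53, rose with LPS by 3.17 in shLuc and 3.87 in shDab2 cells. A looser list held 19 genes reported as ATF4 targets, not all firmly established. It shares Nars with the tRNA synthetase list above and Ppp1r15a with the eIF2α list below. At rest it gave 2 higher and 4 lower genes with a median of -0.01. Vegfa at -0.84 and the autophagy receptor Sqstm1 at -0.72 were the lowest of those called. Unlike the 32 genes, LPS raised 6 and lowered 6 of the 19 in each line, where 15.7% of all genes fell in shLuc and 18% in shDab2 cells. The response was larger in shDab2 cells for 3 and smaller for 1, with a median difference of -0.002.

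Among the sources and partners of ATF4 activity, 7 measured genes for eIF2α kinases, phosphatase subunits and the adaptor Nck1 gave 1 higher (Nck1, at 0.65) and 2 lower genes at rest. The differences of the kinases were small, with -0.25 for Eif2ak3 (PERK) and -0.27 for Eif2ak2 (PKR). Ppp1r15a (GADD34), the phosphatase subunit that ATF4 signalling induces, read 79.9 and 2.5 on the resting shDab2 arrays, so its difference of -0.96 ± 0.30 from resting shLuc cells was not called (limma, adjusted p = 0.0736). The chaperone branch of the unfolded protein response gave 5 lower and 0 higher genes of 15 at rest with a median of -0.17, led by Herpud1 (-0.58) and Hspa5 (-0.45). Of 12 bZIP partners and repressors, Jdp2 (-0.67) and Fos (-0.66) were lower at rest and 0 higher. Atf3, a repressor and late member of the stress response, read 52.5 and 49.1 on shLuc PBS arrays, 94.5 and 86.1 on shLuc LPS arrays, 41.4 and 51.6 on shDab2 PBS arrays and 327 and 327 on shDab2 LPS arrays. Its level was thus alike at rest and 1.43 higher in shDab2 cells with LPS, unlike that of the 32 genes, of which only Slc7a11 was called higher there. Of 12 Nrf2 targets and glutathione genes, 3 were higher and 0 lower at rest, with a median of 0.00. At an unadjusted limma p under 0.05, 1 gene each of the tRNA, chaperone and bZIP lists was higher in resting shDab2 cells and 1 of the Nrf2 list lower. Hmox1, haem oxygenase, was higher in shDab2 cells by 0.70 at rest and 1.65 with LPS.

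**Figure D5:**
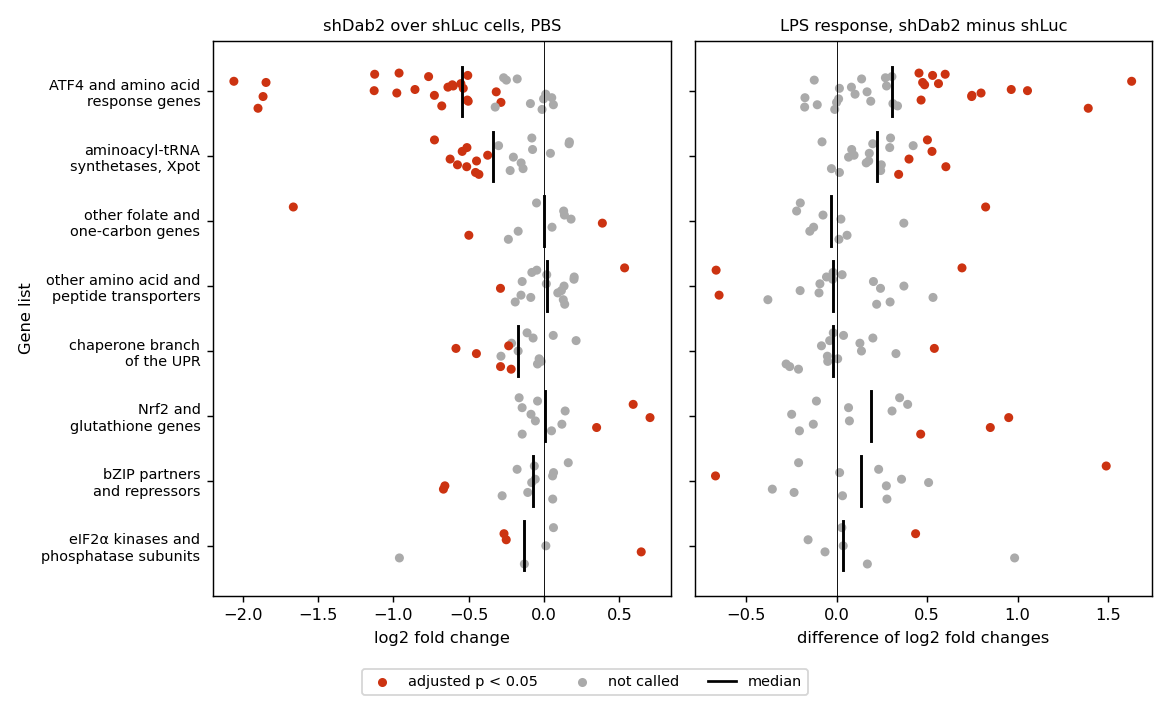
Log2 fold change of shDab2 over shLuc cells with PBS (left) and the difference in LPS response, shDab2 minus shLuc (right), for each gene (points, red at an adjusted p under 0.05) of the ATF4 and amino acid response genes and 7 related lists, with the median of each list as a black line. The median with PBS is -0.54 for the ATF4 and amino acid response genes and -0.34 for the aminoacyl-tRNA synthetases, and between -0.17 and 0.02 for the other lists.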

How the data were processed

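RNA of 8 samples was hybridized, labelled with Cy5, to Phalanx mouse whole genome OneArray v2 arrays. The deposited values are linear intensities for 26423 probes, with negative values on every array, down to -11. Their 75th percentiles ran from 209 to 319, which a scaling to this percentile would have made equal. The scanner software, any scaling and the way of any background subtraction are not given in the sources used here. A deposited table of the mean intensity of each group was not analysed further. Intensities were quantile-normalized over the 8 arrays, 50 was added and the log2 taken, and a value under 50 is called dim. A mean was fitted for each of the 4 groups in limma (version 3.58.1, R 4.3.3) with a trend of the variance with intensity, 4 residual and 6.70 prior degrees of freedom, and Benjamini-Hochberg adjustment over all probes (two-sided); the fit was tested on simulated data. The 5 comparisons were LPS in each line, shDab2 against shLuc in each treatment, and the difference between the LPS responses. The sample titles give replicate numbers without saying whether these pair samples, and the numbers entered an alternative only. A change in total RNA per cell is removed by the normalization, and precision is limited by the number of arrays. The members and the other lists were chosen with earlier results of these data known. All 34 members and Dab2 are named. The 13 members with every array given by rule had the 4 highest or 4 lowest called changes of a comparison or the 6 largest called differences in response. Of other lists and markers, those named are among the 2 highest or 2 lowest calls of a comparison; Ppp1r15a is named after its values were seen. Gene positions and promoters are RefSeq's for GRCm38.p6, matched by Entrez ID; the array's own build is not given in the sources used here. Alternatives were other scalings, offsets, a floor, filters, variance models, the mean of a gene's probes, the replicate number as a block, the study's log2 ratio of 1.5, with and without the offset, and leaving out each array.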

Additional observations from a re-analysis of the deposited data

Results flagged for a closer look

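The LPS response differed between the lines in 14 of the 32 measured genes by the test of the difference itself (limma, adjusted p under 0.05), and each is given here as the log2 response in shDab2 cells minus that in shLuc cells. The values were 1.63 for Chac1 (adjusted p = 1.1e-06), 1.39 for Trib3 (1.52e-05), 1.05 for Nupr1 (0.00221), 0.97 for Mthfd2 (0.000811) and 0.80 for Psph (0.0116). Shmt2 and Slc1a4 each differed by 0.75 (adjusted p = 0.000896 and 0.00356), Asns by 0.60 (0.00172), Ddit3 by 0.56 (0.00407) and Atf4 by 0.53 (0.044). The smallest were 0.49 for Ddit4 (adjusted p = 0.0102), 0.48 for Cth (0.0211), 0.47 for Slc3a2 (0.00575) and 0.45 for Aldh18a1 (0.0157). The difference for Aldh18a1 was not called without shLuc replicate 1 with PBS, shLuc replicate 2 with LPS, shDab2 replicate 1 with PBS or shDab2 replicate 1 with LPS (adjusted p = 0.0647, 0.0644, 0.0575 and 0.0626). Outlying samples could not be looked for in groups of 2 arrays.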

How the results depend on the processing

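Of the member calls, 18 of 19 with LPS in shLuc cells, 22 of 25 with LPS in shDab2 cells, 18 of 22 between the resting lines, 9 of 15 between the lines with LPS and 10 of 14 for the difference in response held in every alternative fit. Calls were lost for Stc2 (LPS, shLuc), for Psat1, Slc38a2 and Slc6a9 (LPS, shDab2), for Atf4, Psat1, Slc6a9 and Slc7a1 (resting lines), for Eif4ebp1, Slc6a9, Slc7a1, Slc7a11, Slc7a5 and Stc2 (lines with LPS) and for Aldh18a1, Atf4, Cth and Psph (difference). The cause was not tested.

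Without normalization between arrays, the median of all genes between the resting lines shifted by 0.13 on the log2 scale, and 24 of the 160 values (32 genes in 5 comparisons) changed sign. Of these, 5 were called in either fit: Gpt2 (-0.22), Mthfd1l (-0.29) and Slc6a9 (-0.075) with LPS in shDab2 cells, and Slc38a2 (0.24) and Slc7a11 (0.19) between the resting lines. There 3 members were then called higher in resting shDab2 cells and 3 lower with LPS in shDab2 cells, and the medians were 0.19 and 0.47 with LPS in shLuc and shDab2 cells, -0.26 and -0.032 between the lines at rest and with LPS, and 0.18 for the difference. Relative to all genes the resting median was -0.40.

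The median with LPS in shDab2 cells was 0.79 with cyclic loess, 0.90 at a common 75th percentile, 0.83 and 0.68 with offsets of 16 and 100, 0.69 with the mean of a gene's probes, 0.85 with a floor of 50 and 0.80 with dim probes removed. The median with LPS in shLuc cells was 0.46 at a common 75th percentile, 0.47 with the floor and 0.46 without dim probes. With the floor the medians were -0.62 between the resting lines, -0.24 with LPS and 0.39 for the difference, and without dim probes -0.23 with LPS.

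At a common 75th percentile 0 members fell with LPS in shDab2 cells. Without the variance trend 0 were higher in shDab2 cells with LPS. Past a difference of 1.5 on the log2 scale, with no test, lay 3 members higher and 0 lower with LPS in shLuc cells, 7 and 0 in shDab2 cells, 0 higher and 4 lower between the resting lines, 0 in either direction with LPS, and 1 larger difference in response. Without the offset, a rule chosen after seeing the data, these counts were 5 and 0, 8 and 0, 0 and 4, 0 in either direction, and 2.

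Leaving out 1 array at a time gave medians of 0.35 to 0.39 with LPS in shLuc cells, 0.64 to 0.83 in shDab2 cells, -0.58 to -0.54 between the resting lines, -0.25 to -0.12 with LPS and 0.29 to 0.35 for the difference. Counts ran from 17 to 18 higher with LPS in shLuc cells, 23 to 24 in shDab2 cells, 20 to 23 lower between the resting lines, 12 to 14 lower and 0 to 1 higher with LPS, and 11 to 14 for the difference. Where a group was left with 1 array, that array was assumed to vary like the others.

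Deviations of same-numbered arrays correlated weakly between groups (r from -0.0892 to 0.156 over 11282 probes). A small shared effect would also leave r low, so this does not decide whether the numbers pair samples. With the replicate number as a block, the difference in response was called in 13 members instead of 14, since Atf4 then had an adjusted p of 0.0616, and no other member call changed.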
